A study of Mus musculus with 4 samples.

Results

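Sox5 and Sox6 encode the SOX5 and SOX6 proteins, and their peaks of 5-hydroxymethylcytosine (5hmC) are described here. 5hmC is a DNA base that TET enzymes produce by oxidising 5-methylcytosine. Taken were all entries of both deposited 5hmC peak lists that the authors' annotation named Sox5 or Sox6, and all entries that overlapped the Sox5 body on chromosome 6 (143828425 to 144782287, GRCm38). This gave 56 of 57745 peaks, 42 for Sox5 and 14 for Sox6, all from the day 20 list. The cells were ATDC5, a mouse chondrogenic line, kept as chondroprogenitors at day 0 or turned into chondrocytes with insulin, transferrin and selenite. All cultures shared a medium with serum, glutamine and ascorbic acid. Of the 4 libraries, 2 were chondroprogenitors at day 0 and 2 were chondrocytes, with day 19 given in the label of 1 and day 20 in that of the other. The libraries of a stage were merged by the authors into a list of the positions with a 10-fold enrichment. The spread between replicates is therefore unknown, and the comparisons are descriptions without a test. Read depth was unknown. The files hold no expression values, so the stage labels could not be checked against markers.

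SOX5 and SOX6 are closely related transcription factors of the SoxD group. They bind DNA through an HMG box, pair with each other through a coiled coil and have no known activation domain of their own. In cartilage they act beside SOX9, and mice that lack both form very little cartilage. Sox5 is known to make a long protein, L-SOX5, in chondrocytes and a shorter protein in the testis. Both genes are very long, and both run from high to low coordinates, so their 5′ end is the end with the highest coordinate.

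Windows of 250 bases before annotated starts of the 2 genes are shown first, because a day 20 peak covered a Sox6 start. The table gave 6 windows for Sox6 and 1 for Sox5, and none of them lay at the 5′ end of either gene. They come from RefSeq (GRCm38.p6), are written 5′ to 3′ on the minus strand, and have CG dinucleotides, the usual place of 5hmC, in capitals. The Sox5 window lies at chr6:143947107-143947356, at a start 835 kb from the 5′ end. The Sox6 windows lie at chr7:116038745-116038994 (nearest to the 5′ end), chr7:116031048-116031297 (the next start) and chr7:115824711-115824960 (an inner start). The Sox6 start labelled 5′-most is so only among these windows. It lies 2.03 kb inside the gene, and the 5′ end itself was not examined.
Sox5 inner start: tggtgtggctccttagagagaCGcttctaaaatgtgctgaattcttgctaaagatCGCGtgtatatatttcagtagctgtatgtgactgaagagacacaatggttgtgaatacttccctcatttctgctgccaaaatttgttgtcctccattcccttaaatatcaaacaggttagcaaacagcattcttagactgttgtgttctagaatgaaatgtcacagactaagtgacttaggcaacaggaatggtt
Sox6 5′-most start: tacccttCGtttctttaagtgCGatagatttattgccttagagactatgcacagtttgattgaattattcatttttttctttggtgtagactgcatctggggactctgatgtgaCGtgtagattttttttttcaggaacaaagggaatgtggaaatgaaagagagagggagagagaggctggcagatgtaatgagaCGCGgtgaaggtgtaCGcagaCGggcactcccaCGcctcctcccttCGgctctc
Sox6 next start: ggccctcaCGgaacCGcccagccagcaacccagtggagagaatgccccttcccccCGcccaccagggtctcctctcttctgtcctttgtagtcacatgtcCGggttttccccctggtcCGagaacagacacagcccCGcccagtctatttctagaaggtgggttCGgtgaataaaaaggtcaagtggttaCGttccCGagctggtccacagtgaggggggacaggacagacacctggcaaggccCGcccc
Sox6 inner start: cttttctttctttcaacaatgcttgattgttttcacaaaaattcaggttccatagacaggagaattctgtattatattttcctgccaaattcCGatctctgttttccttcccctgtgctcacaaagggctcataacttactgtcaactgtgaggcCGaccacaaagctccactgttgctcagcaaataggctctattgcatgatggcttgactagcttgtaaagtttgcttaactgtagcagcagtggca

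The Sox6 peak from 116030447 to 116031503 covered all 250 bases of the next start and its 10 CG dinucleotides. It was 1057 bp wide, the widest in Sox6. Among the windows given, the 5′-most of Sox6, with 9 CG dinucleotides, lay 7.24 kb from that peak and was not covered. At the inner start shown, the peak from 115824221 to 115824776 covered 66 bases at the 3′ end of the window and neither of its 2 CG dinucleotides. The remaining 3 Sox6 windows, with 2, 2 and 1 CG dinucleotides, were uncovered, and their nearest peaks lay 35.1, 1.29 and 22.4 kb away. A day 20 peak thus touched 2 of 6 Sox6 windows, against 4.54% of all 32851 windows in the table. The Sox6 windows are shown because a peak covered a start, so no excess can be read from these values. The Sox5 window held 3 CG dinucleotides, and the nearest peak (143949725 to 143950121) began 2.37 kb upstream of it. The median window held 6 CG dinucleotides. Windows with a day 20 peak had a median of 5 and those without a median of 6.

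The letters AACAAT, a core that SOX proteins bind, were searched on both strands of the same windows. Only the inner Sox6 start shown held them, with 2 matches, and both lay outside the bases that the peak covered. Among all windows 9.42% held a match, among those with a day 20 peak 8.24%. These are matches of letters and not measured binding.

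At day 0 neither gene carried a peak. The Sox5 body (954 kb) held 42 peaks at day 20 and 0 at day 0, and the Sox6 body (570 kb, chr7:115470872-116040776) held 14 and 0. Absence at day 0 was the usual case. Only 1.76% of all protein-coding genes had a day 0 peak in the body, and 11.2% of the 989 protein-coding genes of at least 200 kb had one, whereas 40.6% and 79.5% had a day 20 peak. The day 0 list was also far shorter, with 1050 peaks against 56695, and the part of list length in this contrast was not tested.

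The surroundings of the 2 genes differed at day 0. The nearest day 0 peaks to Sox5 lay 137 kb beyond its 3′ end (143690964 to 143691070) and 219 kb beyond its 5′ end (145001632 to 145001803, in Bcat1, an enzyme gene of branched-chain amino acid breakdown). Both overlapped a day 20 peak, of 967 and 635 bp, while the nearest day 0 peaks on both sides of Sox6 overlapped none. The share of all day 0 peaks that overlap a day 20 peak is not given here, so neither case can be called unusual. Sox6 lay in the longest stretch between neighbouring day 0 peaks of any chromosome in the list, 39.9 Mb from 90442032 to 130362854 on chromosome 7, out of 1029 such stretches. Its nearest day 0 peak was 14.3 Mb away, and 248 of 21640 protein-coding genes lay farther from one. The median distance was 1002 kb. The same stretch held 722 day 20 peaks. Chromosome 7 as a whole had 30 day 0 and 2464 day 20 peaks, and chromosome 6 had 61 and 4102.

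Of the 42 day 20 peaks in the Sox5 body, the authors' annotation gave 16 to Sox5. The other 26 (61.9%) were not assigned to it. A Wilson 95% interval of 46.8 to 75% served only as a range for alternative settings. It treats peaks as independent draws, which neighbouring peaks of a gene were not. Of these, 25 had no gene symbol at all, and 1 (144691286 to 144691609) was assigned to 4933425H06Rik, the noncoding gene now called Sox5os3. The assigned and unassigned peaks did not mix. All 16 assigned peaks lay between 143843337 and 144210970, towards the 3′ end, and carried the same transcript accession. All 26 others lay between 144224591 and 144781123, on the 5′ side. A stretch of 13.6 kb without peaks separated the 2 sets. In Sox6 all 14 peaks were assigned to Sox6, 13 of them to the same transcript. The exception was the peak over the start near the 5′ end, which carried another Sox6 transcript.

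**Figure D1:**
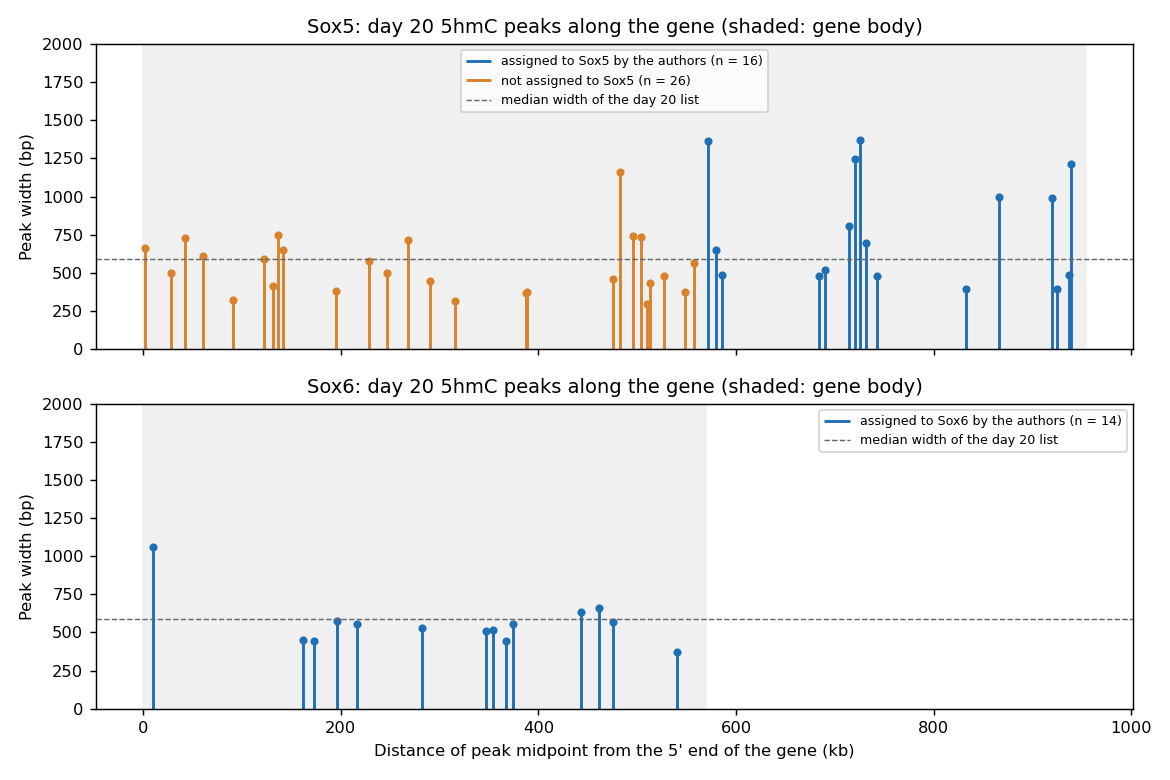
Width in base pairs (vertical axis) of each day 20 peak in Sox5 (top) and Sox6 (bottom) against the distance of its midpoint from the 5′ end of the gene in kb. Blue peaks were assigned to the gene by the authors and orange peaks were not, the shaded area is the gene body and the dashed line is the median width of the day 20 list (591 bp). The 26 unassigned Sox5 peaks all lie on the 5′ side of the 16 assigned ones.

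So low a share of assigned peaks was uncommon. Among the 702 protein-coding genes with at least 10 day 20 peaks in the body, 509 (72.5%) had every peak assigned to them, as Sox6 had. Sox5, with 38.1%, stood at percentile 2.99. There were 20 genes with a lower share, and 1, Rarb, a retinoic acid receptor gene, with the same share (8 of 21 peaks). A single change from assigned to unassigned along the gene was common. It was found in 138 of the 189 partly assigned genes, Sox5 included.

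**Figure D2:**
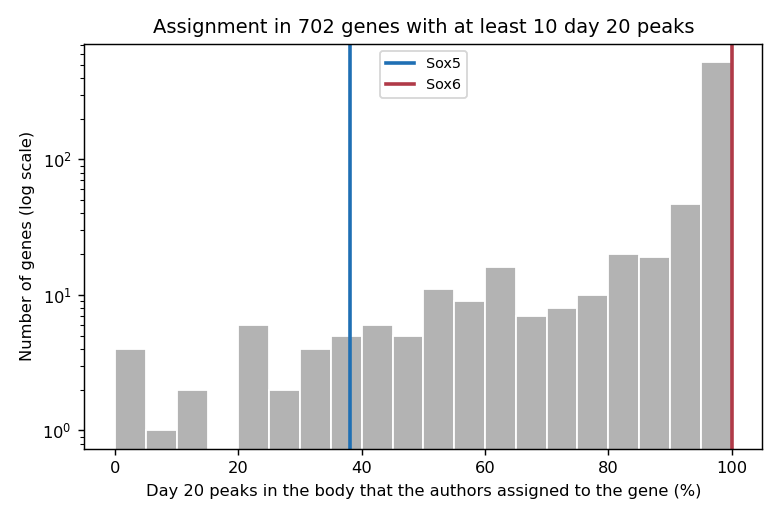
Number of protein-coding genes (vertical axis, log scale) by the share of their day 20 peaks that the authors assigned to them, for the 702 genes with at least 10 peaks. The blue line marks Sox5 at 38.1% and the red line Sox6 at 100%, the level of 509 genes.

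The 2 stretches of Sox5 held peaks at nearly the same density but with different median widths and median spacings. These differences were not tested. From the 3′ end of the gene to the last assigned peak, 383 kb held 16 peaks, or 4.18 per 100 kb. The remaining 571 kb held 26, or 4.55 per 100 kb. Assigned peaks had a median width of 671.5 bp and the others 501 bp. Of the 6 Sox5 peaks of at least 1000 bp, 5 were assigned. The widest were 1374 bp (144056464 to 144057837), 1361 bp (144209610 to 144210970) and 1245 bp (144061555 to 144062799). The wide peak without a symbol spanned 1164 bp (144298723 to 144299886). Midpoints of neighbouring peaks lay a median of 7.63 kb apart among the assigned and 18.2 kb among the others. The longest stretch of Sox5 without a peak, 97.3 kb from 144098628 to 144195947, nevertheless lay among the assigned peaks.

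Over the whole gene, Sox5 peaks had a median width of 541 bp (quartiles 438 and 731 bp, range 296 to 1374 bp). Sox6 peaks had a median of 541.5 bp (quartiles 464.5 and 572 bp, range 370 to 1057 bp). Medians of the 2 genes thus differed by less than 1 bp, and both lay below the 591 bp of the day 20 list. The quartiles lay farther apart in Sox5 than in Sox6, and this difference was not tested. Peaks of at least 1000 bp made up 6 of 42 in Sox5, 1 of 14 in Sox6 and 12.4% of the list. These counts are too small to set either gene apart from the list. In Sox6 11 of 14 peaks were narrower than the list median, in Sox5 24 of 42. Among 405 protein-coding genes of at least 200 kb with at least 10 peaks, the median of the gene medians was 598 bp (quartiles 524 and 683 bp), which placed Sox5 at percentile 29.8 and Sox6 at 30.0.

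Peaks covered 26.7 kb of Sox5 (2.80% of its length) and 7.86 kb of Sox6 (1.38%). Counted from the 5′ end, Sox5 held 18 peaks nearer the 5′ than the 3′ end and 24 nearer the 3′ end, and Sox6 held 6 and 8. The 5′-most Sox5 peak (144780464 to 144781123) ended 1.16 kb inside the gene, and the 3′-most (143843337 to 143844550) began 14.9 kb from the other end. By steps of 100 kb from the 5′ end, the 9 full steps of Sox5 held 5, 5, 4, 3, 3, 9, 2, 5 and 2 peaks, and the last 53.9 kb held 4. The step from 500 to 600 kb was the fullest, and it contains the change from unassigned to assigned peaks. In Sox6 the 5 full steps held 1, 3, 2, 4 and 3 peaks and the last 69.9 kb held 1.

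**Figure D3:**
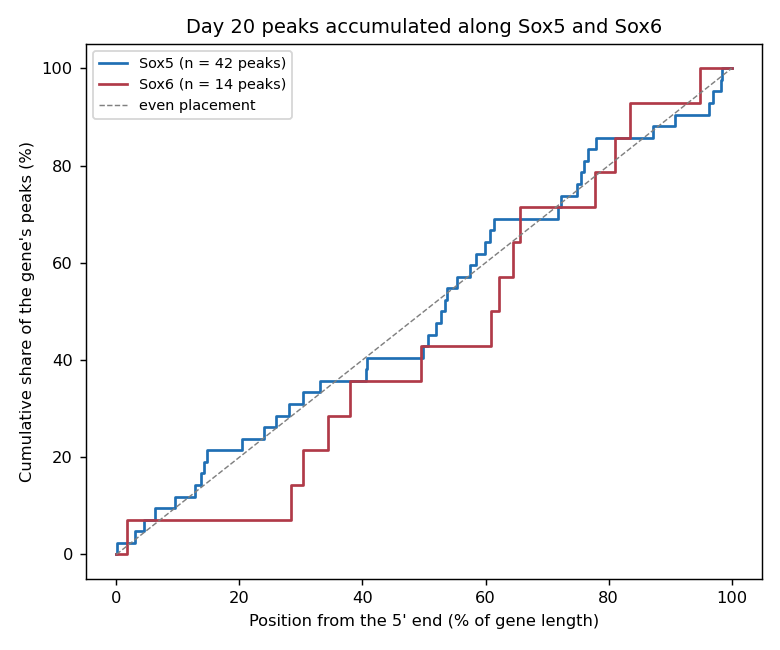
Cumulative share of the day 20 peaks (vertical axis, %) against position from the 5′ end (horizontal axis, % of gene length) for Sox5 (blue, 42 peaks) and Sox6 (red, 14 peaks), with even placement as a dashed line. Sox5 stays close to the diagonal, while Sox6 is flat after its 5′-most peak over a stretch that makes up 26.6% of the gene.

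Neighbouring Sox5 midpoints were 1.42 to 97.8 kb apart, with a median of 13.7 kb (quartiles 6.55 and 27.1 kb, 41 distances), and 17 of these distances were at most 10 kb. Joined at that distance, the peaks formed 25 groups, of which 15 were single peaks and the largest, 3 in number, had 4 peaks each. Of these, 2 lay among the unassigned peaks (144640740 to 144659862 and 144269560 to 144287017) and 1 among the assigned (144050021 to 144068028). Neighbouring Sox6 midpoints were 6.31 to 152 kb apart, with a median of 20.1 kb (quartiles 13.6 and 64.9 kb, 13 distances). Only 2 of them were at most 10 kb, which gave 2 groups of 2 peaks (115686527 to 115693637 and 115666598 to 115673412). The Sox6 stretch between the peak over the start near the 5′ end and the next peak, 152 kb from 115878802 to 116030446, made up 26.6% of the gene. In the 405 genes above, the longest stretch without a peak had a median of 17.0% of the gene, which placed Sox6 at percentile 83.6 and Sox5, with 10.2%, at 13.2. The median spacing over those genes was 12.0 kb, with Sox5 at percentile 63.8 and Sox6 at 88.3. Divided by the spacing that even placement of a gene's peaks would give, the median spacing was 0.604 in Sox5 and 0.493 in Sox6, at percentiles 34.0 and 13.5. The 95% intervals of the median spacing, from the order of the distances, were 7.74 to 21.6 kb in Sox5 and 10.9 to 66.2 kb in Sox6. They treat the distances of a gene as independent draws and served only as a range for alternative settings. The difference in spacing between the 2 genes was not tested.

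Peak density was set against other long genes. Sox5 had 4.40 day 20 peaks per 100 kb and Sox6 2.46, and the 989 protein-coding genes of at least 200 kb had a median of 1.88 (quartiles 0.330 and 5.01). This placed Sox5 at percentile 69.8 and Sox6 at 55.4. With genes of at least 500 kb alone these percentiles were 86.5 and 73.2. By number of peaks Sox5 ranked 11 among the 989 genes and Sox6 273. The genes with the most similar density and a length within 1.5 times that of Sox5 were Erc2, a presynaptic scaffold gene (38 peaks, 4.44 per 100 kb), Ptprg, a receptor tyrosine phosphatase gene (30, 4.36), and Tenm4, a teneurin gene (32, 4.33), out of 122 candidates. Within these 122 genes of like length the median was 0.365 per 100 kb, and Sox5 stood at percentile 88.5. Those nearest to Sox6 were Enox1 (14 peaks, 2.48 per 100 kb), Inpp4b, a phosphoinositide phosphatase gene (19, 2.40), and Lama2, a laminin chain gene (16, 2.52), out of 294 candidates with a median of 1.54, among which Sox6 stood at percentile 59.5.

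**Figure D4:**
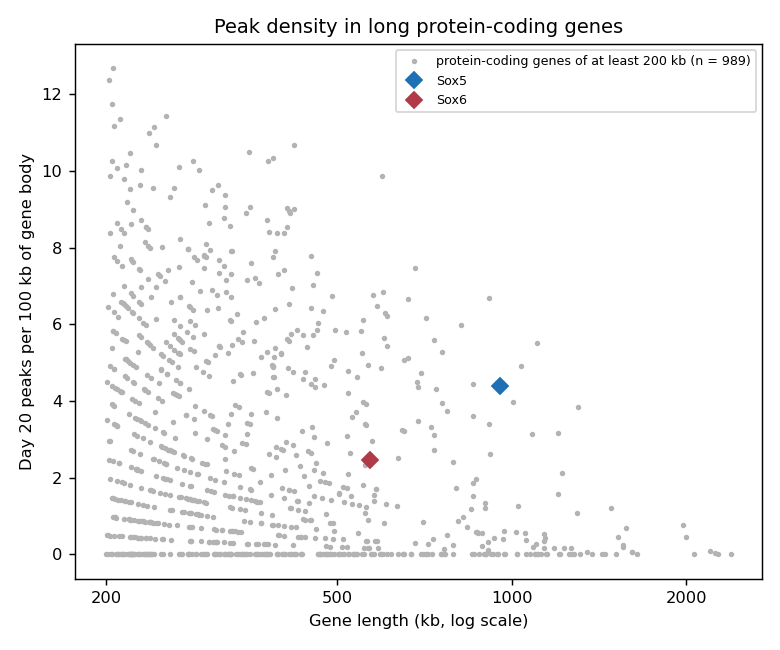
Day 20 peaks per 100 kb of gene body (vertical axis) against gene length in kb (horizontal axis, log scale) for the 989 protein-coding genes of at least 200 kb, one grey point per gene. Sox5 (blue) stands at 4.40 and Sox6 (red) at 2.46, above the median of 1.88 and below the densest genes.

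The regions around both genes were denser in peaks than the genes themselves. The 250 kb beyond the 3′ end of Sox5 held 18 peaks (7.2 per 100 kb) and the 250 kb beyond its 5′ end 22 (8.8), against 4.40 in the body. Together the flanks of Sox5 had 1.82 times the density of the body, and their 8.0 peaks per 100 kb stood at percentile 99.1 among the flanks of the 989 long genes (median 2.2). Of the 18 peaks on the 3′ side, 8 were assigned to the noncoding gene 1700060C16Rik, and of the 22 on the 5′ side 2 were assigned to Bcat1. The other 30 had no symbol. The nearest protein-coding gene on the 3′ side, Etnk1, an ethanolamine kinase gene, lies 620 kb away, and Bcat1 lies 212 kb away on the 5′ side. For Sox6 the 250 kb beyond the 3′ end held 14 peaks (5.6 per 100 kb), none with a symbol, and the nearest protein-coding gene there, Insc, which acts in spindle orientation, lies 620 kb away. The 250 kb beyond the 5′ end held 10 peaks (4.0 per 100 kb), of which 5 were assigned to Plekha7, an adherens junction gene. The nearest protein-coding gene on that side, 1110004F10Rik, lies 40.6 kb away and held 0 day 20 peaks. The Sox6 flanks had 1.95 times the density of the body, but 1.18 times when they were widened to 500 kb. Both flanks were denser than the body in 18.5% of the 989 genes, and among the 786 with a day 20 peak the flanks had a median of 0.803 times the density of the body.

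**Figure D5:**
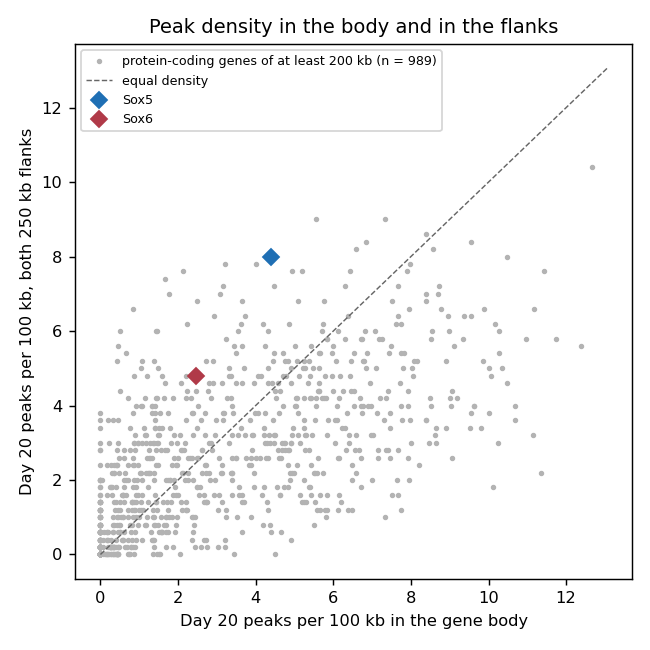
Day 20 peaks per 100 kb in both flanks of 250 kb together (vertical axis) against those in the gene body (horizontal axis) for the 989 protein-coding genes of at least 200 kb. Sox5 (blue, 4.40 and 8.0) and Sox6 (red, 2.46 and 4.8) both lie above the dashed line of equal density.

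RefSeq places 6 long noncoding genes inside Sox5, over 6.86% of its length, and 2 of its 42 peaks (4.76%) overlapped any of them, 1 in Gm38531 (144211110 to 144227535) and 1 in Sox5os3 (144672868 to 144693832). Sox6 contains 2, over 4.91% of its length, and 1 of its 14 peaks (7.14%) lay in Gm51455 (115497640 to 115525025). The wide Sox6 peak near the 5′ end stopped short of Sox6os (116031979 to 116032550).

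Most other SOX genes are short and carried few peaks. Of 17 other SOX family genes, 6 held a day 20 peak (35.3%, against 40.6% of protein-coding genes), each exactly 1, and the median was 0, as over all protein-coding genes. The median length was 4.78 kb in this list and 17.1 kb over all protein-coding genes. Sox13, the third SoxD gene, is 42.2 kb long and held 1 peak (2.37 per 100 kb). Sox9 held 1 day 20 peak in its 5.55 kb, while the authors assigned 3 to it, and it was the only gene of this list with a day 0 peak. The remaining 4 were Sox8 and Sox10, which with Sox9 form the SoxE group, Sox12 and Sox30.

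Of 14 cartilage genes that SOX9, SOX5 and SOX6 are known to bind or activate, 11 held a day 20 peak (78.6%, against 40.6% of protein-coding genes), with 27 in all and a median of 1, against 0. Their median length was 24.3 kb, against 17.1 kb. Col9a1 and Col11a1, collagen chains of the cartilage fibril, held 5 each, and Acan, the gene of the proteoglycan aggrecan, held 4. Col9a3, Matn1 and Cnmd held none. Hapln1, which encodes the link protein that ties aggrecan to hyaluronan, was the only member with a day 0 peak.

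Of 12 genes for cofactors of SOX9, 6 held a day 20 peak (50.0%, against 40.6% of protein-coding genes), with 94 in all and a median of 0.5, against 0. Their median length was 88.5 kb, against 17.1 kb. Ppargc1a, a transcriptional coactivator gene of 662 kb, held 44 and a day 0 peak. As in Sox5, the authors' annotation left most of them out, with 6 of 44 assigned to the gene and a single change along it. Arid5b, Smad3 and Trps1 held 13 each and Wwp2, a ubiquitin ligase gene, held 10, and for these the authors' annotation gave 13, 13, 15 and 10. Crebbp, Kat5, Maf, Med12, Med25 and Zfp219 held none.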

How the data were processed

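Genomic DNA enriched for 5hmC was sequenced in 4 ATDC5 libraries. Per the file headers, the authors merged the libraries of a stage and deposited peaks with a 10-fold enrichment. Neither the reference of that fold nor the place of the day 19 library in the day 20 list is given in the sources used here. The submitters' processing notes name FastQC, cutadapt, BWA, MACS 1.4.2 and GRCm38 (mm10), without their roles. Each deposited entry gave a start, an end, a gene symbol and a transcript accession. The strand entry was + for every day 20 peak. The day 20 list had 3 entries without a readable end, which were left out.

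Gene positions came from RefSeq GRCm38.p6 (49976 placed genes, 21896 protein-coding), as start and end only. Strand came from the promoter table, and exons were not used here. A peak belonged to a gene when they overlapped by at least 1 bp, and widths count both ends. A percentile is the share of genes below the value, plus 0.5 of those equal to it, and describes these lists. Assignment by the authors was matched by symbol, older symbol or transcript accession. Shares have Wilson 95% intervals, and medians have 95% intervals from the order of the values. Both treat the counted items as independent draws and measure no spread between replicates. Samples were grouped by the labelled stage, and no test was made, since there was 1 merged list per stage.

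The members, gene lists and measures were chosen with earlier results of these data known. Named genes were Sox5, Sox6 and Sox13. Of each list, up to 3 members with the most day 20 peaks and those with a day 0 peak were named. Also named were the 3 most similar genes by density, the protein-coding genes beside the bodies and some of the noncoding genes in them. Others, such as Rarb, list members without a peak and further members with one, were chosen after their values were seen. Alternatives covered the assignment of peaks, gene margins, merging of peaks within 1 kb, peak width, the set of comparison genes and, added after seeing the data, the flank size. On simulated peaks, overlap counts matched a second, direct count by the same overlap rule in 200 of 200 genes. This checked the counting step only, and not spacing, flanks or assignment. Computation used Python 3.11.15, numpy 2.4.6, pandas 2.3.3, scipy 1.17.1 and matplotlib 3.10.9.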

Additional observations from a re-analysis of the deposited data

How the results depend on the processing

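No paired analysis was possible because the libraries of each stage were merged into 1 list, which also prevented leaving out a library. Of 43 alternative values for 13 results, 34 stayed within 1.5 times a count or within the 95% interval of a value. Some of these could not move. All 14 Sox6 peaks carried the Sox6 symbol, and none lay within 1 kb of another. No day 0 peak lay within the 5 kb margin of either gene. By the authors' symbol, Sox5 had 16 day 20 peaks in place of 42, a median spacing of 7.63 kb in place of 13.7 kb and a median width of 671.5 bp in place of 541 bp, since only the 3′ stretch carries that symbol. With peaks at least as wide as the list median, Sox5 had 18 peaks and Sox6 had 3, since narrower peaks were dropped. The density percentile of Sox5 was 65.5 among genes of at least 100 kb and 86.5 among those of at least 500 kb, and that of Sox6 was 47.1 and 73.2. With flanks of 100 kb and 500 kb, chosen after seeing the data, the flanks had 1.36 and 1.61 times the density of the body in Sox5 and 1.63 and 1.18 times in Sox6. Peak positions without heights limit what can be said on the amount of 5hmC, and the unknown read depth limits what the absence of a day 0 peak shows.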
